A study of Rattus norvegicus with 6 samples.

Results

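The glycolysis and hypoxia genes described here are 40 genes listed by symbol, with earlier results of these data known, in 5 roles: glucose and lactate transporters, glycolytic enzymes, enzymes that switch glycolysis and pyruvate use, the hypoxia-inducible factors with their oxygen sensors, and hypoxia targets outside glycolysis. Of these, 38 had a probe set annotated to 1 gene symbol, counting Gapdh. Outside the control probe sets 10411 genes had one, and each was represented by its brightest such probe set. Of the 40, 36 entered the test of strain, among 7163 genes tested. Ankrd37 lay below the filter on dim signals, and Gapdh is carried only by control probe sets of the array. Pkm and Car9 were not analysed here.

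The study used epithelial cells isolated from the lungs of rat fetuses at embryonic day 19 and labelled as type II cells, the surfactant-making cells of the alveolus. The labels give the rats as CD, male and female, for 5 of the 6 samples, and the litter is the only donor unit named. All cultures were grown in serum-free DMEM on silastic membranes carrying collagen 1. The 3 control cultures were kept unstrained, and the 3 strained cultures were stretched for 16 h in a Flexercell unit, each hour being made up of 15 min of cyclic 5% stretch, repeated 60 times per min, and 45 min of steady distension at 2.5%. The samples form 3 pairs, 1 control and 1 strained culture from each of 3 litters, and the question put to them was which transcripts respond to mechanical force.

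Glycolysis breaks glucose down to pyruvate in the cytosol, and lactate dehydrogenase turns pyruvate into lactate when it is not passed to the mitochondria. Hypoxia-inducible factors (HIFs) are transcription factors whose alpha subunits are hydroxylated by oxygen-dependent prolyl hydroxylases and then degraded. When oxygen is low the alpha subunits accumulate, mostly without a change of their own mRNA, and HIF-1 raises the transcripts of most glycolytic enzymes, of glucose transporters and of genes for blood vessel growth. The fetal lung develops at low oxygen tension, and fetal type II cells use glucose and glycogen to build surfactant lipid.

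Values are MAS5 signals, the array software's estimate of the brightness of a probe set, scaled to the same trimmed mean on every array. Before this scaling, the median deposited signal per array lay between 161.7 and 199.0, control probe sets included. Pair 1 was run on a day of its own and pairs 2 and 3 together on another day, and pair 3 came from a chip lot of its own. The 3' over 5' signal ratio of Gapdh, a measure of RNA integrity, was 1.41 and 1.47 in the control and strained culture of pair 1, 1.56 and 1.73 in pair 2, and 1.80 and 1.79 in pair 3. Epithelial markers were bright, with the summed signal of 8 genes between 43252 and 47233 in controls and between 43276 and 47972 in strained cells. Of 9 measured type II markers 7 lay above the filter, among them Sftpc and Sftpb, while Sftpa1 and Napsa lay below it. All 7 measured alveolar type I markers lay above it too, with sums of 23682 to 25846 in controls and 22841 to 25018 in strained cells. The type II sums were 10406 to 11214 and 10765 to 11296. Of 4 measured airway markers 3 lay above the filter, the brightest being Scgb1a1, at 14502, 12621 and 12407 in controls. All 6 measured endothelial markers lay below the filter.

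No member of the 36 was called at an adjusted p of 0.05 by limma, whose model held the litter pair as a term, while 25 of all 7163 tested genes (0.349%) and 31 of the 9519 probe sets (0.326%) were. At an unadjusted p of 0.05, 6 members passed, which is 16.7% of members against 9.56% of all tested genes. Of the 36 members, 4 passed it with strained cells higher, where 4.83% of all tested genes did, and 2 with strained cells lower, where 4.73% did. The 6 are Slc2a1, Aldoa, Egln3 and Vegfa on the higher side and Aldoc and Pdk2 on the lower side. Their adjusted p-values lay between 0.265 and 0.521. The members' median log2 difference was 0.05 (n = 36), beside -0.01 over all tested genes, and 19 members lay above 0 and 17 below it. The same direction in all 3 pairs was seen for 15 members, 8 higher and 7 lower. That share of 41.7% stands beside 30.5% of all tested genes, 14.3% higher and 16.2% lower. The precision was enough to place the 95% interval of 24 members (66.7%) wholly within a 1.5-fold change in either direction, against 71.3% of all tested genes. With 3 pairs, most of the variance estimate behind each interval comes from the rest of the array.

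**Figure D1:**
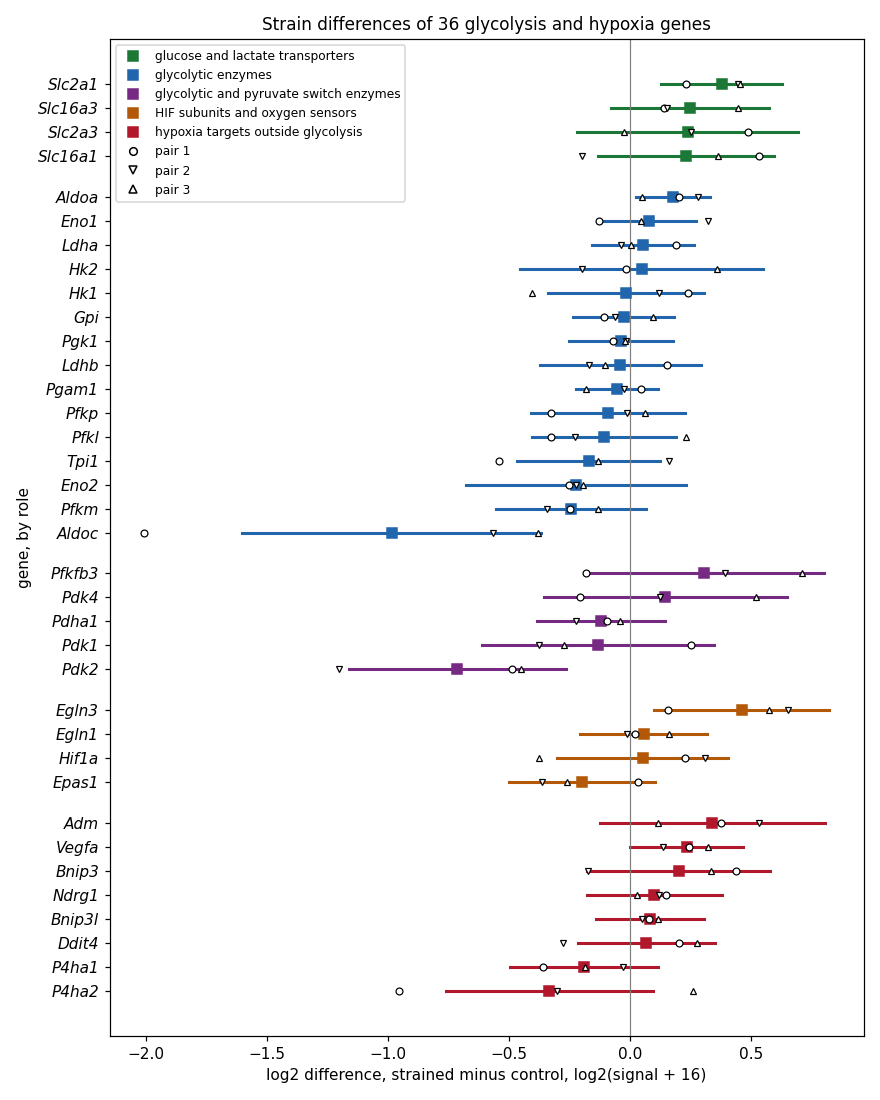
Log2 difference of strained minus control cells (x axis, log2 of signal + 16) for the 36 tested members (y axis, grouped by role). Squares are the fitted values, bars their 95% intervals, and open symbols the 3 litter pairs. The 4 transporters lie to the right of 0, most enzymes sit close to 0, and Aldoc and Pdk2 lie furthest left.

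ACGTG is a form of the core of HIF binding elements. It was searched for on both strands in the 250 bases before the RefSeq start of each gene (build GRCr8). No other form was searched for or marked, and the core means ACGTG from here on. ACGTG was found for 17 of the 36 members with a window (47.2%). The share was 24.3% over the 6032 tested genes with a window and 18.1% over all 27457 genes with one. The list was drawn up as glycolysis and hypoxia genes, so a higher share than over all genes is no result of these data. The 36 members with a window are not the 36 tested members. They include the untested Gapdh, Pkm, Car9 and Ankrd37, and Slc2a3, Pgk1, Bnip3l and Ndrg1 had no window. Among tested members with a window, 15 held the core and 17 did not. A member with several windows was counted once. The stretches below belong to 5 of the 7 members with the largest differences, and to Ldha, whose promoter holds 2 sites and whose signal hardly differed. They run 5' to 3' on the gene's own strand, and capitals mark the core on either strand (CACGT is its reverse complement). Where a core and its complement overlap, the letters read CACGTG, which is also the E-box bound by other factors.
Slc2a1: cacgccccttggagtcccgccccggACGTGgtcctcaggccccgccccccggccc
Pfkfb3: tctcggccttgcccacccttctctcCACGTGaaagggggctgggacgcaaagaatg
Ldha: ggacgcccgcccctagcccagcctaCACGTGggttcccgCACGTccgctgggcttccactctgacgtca
Pdk2: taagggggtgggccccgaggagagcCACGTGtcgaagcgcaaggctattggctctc
Aldoc: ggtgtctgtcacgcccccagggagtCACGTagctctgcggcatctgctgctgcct
P4ha2: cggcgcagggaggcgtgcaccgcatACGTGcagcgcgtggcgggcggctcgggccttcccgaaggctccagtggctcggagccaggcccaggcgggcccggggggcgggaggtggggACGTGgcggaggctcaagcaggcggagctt

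The stretches lie at chr5:138002446-138002500 (Slc2a1, plus strand), chr17:71944866-71944921 (Pfkfb3, plus), chr1:106507980-106508048 (Ldha, plus), chr10:80484025-80484080 (Pdk2, minus), chr10:63715488-63715542 (Aldoc, plus) and chr10:38743736-38743882 (P4ha2, plus). The site nearest the start began 51 bases before it in Slc2a1, 42 in Pfkfb3, 73 in Ldha, 143 in Pdk2, 31 in Aldoc and 41 in P4ha2. Among tested members, the 15 with the core had a median log2 difference of 0.05, with 8 of them above 0, and the 17 without it a median of -0.03, also with 8 above 0. Slc2a1 was the highest and Aldoc the lowest of the members with the core. Egln3 and Adm held no ACGTG in this window, and other forms of the core were not searched for.

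The transporters were the only role with every fitted value above 0, at a median of 0.24 over 4 genes, where 47% of all tested genes lay above 0. Slc2a1 encodes GLUT1, the glucose importer of most growing cells. Its signals were 1473, 1325 and 995 in control cultures 1, 2 and 3 and 1734, 1812 and 1369 in the strained cultures of the same litters. Each strained culture was above its own control, but the groups overlapped, since strained culture 3 was below control 1. The log2 difference was 0.38 ± 0.11 (SE, n = 3 pairs), with a 95% interval from 0.13 to 0.63 and an adjusted p of 0.289 in limma.

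The other glucose importer, Slc2a3, encodes GLUT3 and was at 0.24 ± 0.21, with 0.49, 0.25 and -0.02 in pairs 1, 2 and 3. Its second probe set, below the filter, was lower in each pair, with a mean difference of -0.29. The lactate carriers were close to it in size. Slc16a3, the lactate exporter MCT4, was at 0.25 ± 0.15 and higher in all 3 pairs. Slc16a1, the carrier MCT1, was at 0.23 ± 0.17, with strained culture 2 below its control (-0.20). No adjusted p of these 3 genes was under 0.676. Bsg, which encodes the chaperone that carries both lactate carriers to the cell surface, belonged to the wider pathway list. It was at 0.37 ± 0.09 (adjusted p = 0.153 in limma), with signals of 8528, 8612 and 7422 in controls and 12894, 11002 and 8357 in strained cells. Of that list's 26 tested genes, 11 lay above 0 and 15 below it, and Bsg is named for its small p.

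The glycolytic enzymes hardly differed. Over 15 tested enzymes the median log2 difference was -0.04 and the median size without sign 0.08, against 0.12 over all tested genes. There were 4 values above 0 and 11 below it, of which Hk1 and Gpi turned positive under median scaling. The 95% intervals of 13 of the 15 lay within a 1.5-fold change. In order of the pathway, the hexokinases that trap glucose were at -0.02 ± 0.15 (Hk1) and 0.05 ± 0.23 (Hk2), and glucose phosphate isomerase, Gpi, at -0.03 ± 0.09. The subunits of phosphofructokinase, the committed step, were at -0.11 ± 0.13 (Pfkl), -0.24 ± 0.14 (Pfkm) and -0.09 ± 0.15 (Pfkp). Only Pfkm of these was lower in every pair, and its second probe set, far below the filter, was lower in every pair too, by 0.27, 1.09 and 1.18.

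At the aldolase step the isozymes lay on opposite sides of 0. Aldoa, the ubiquitous form, had signals of 14375, 11663 and 11203 in controls and 16542, 14181 and 11591 in strained cells. It was higher in each pair, by 0.20, 0.28 and 0.05, and the groups overlapped. The fitted difference was 0.18 ± 0.07 (95% interval 0.03 to 0.33, adjusted p = 0.441 in limma). Aldoc, best known as the brain aldolase, had control signals of 194, 361 and 418 and strained signals of 36.2, 239 and 317. It was lower in each pair, and the log2 difference of -0.98 ± 0.28 (95% interval -1.6 to -0.37) did not pass (adjusted p = 0.265 in limma). Pair 1 contributed -2.01, against -0.57 and -0.38 in pairs 2 and 3. Its strained signal there lies below the level of the dim filter, 115.5. Without pair 1 the difference of Aldoc was -0.47 ± 0.22.

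The later steps of the pathway differed little. Tpi1, which interconverts the triose phosphates, was at -0.17 ± 0.13, with pair differences from -0.54 to 0.16. Pgk1, the first ATP-yielding step, gave 1687, 3031 and 2856 in controls and 1608, 2996 and 2811 in strained cells. No pair differed by more than 0.07 in size, and the fitted value was -0.04 ± 0.10. A second tested probe set of Pgk1 was at -0.17 ± 0.14. Pgam1 and Eno1, the mutase and the enolase of most tissues, were at -0.05 ± 0.08 and 0.08 ± 0.09. The neuronal enolase gene Eno2 was at -0.22 ± 0.21 on a dim probe set, lower in all 3 pairs.

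Ldha, the lactate dehydrogenase subunit that favours lactate formation, gave 2013, 3682 and 4080 in controls and 2299, 3589 and 4092 in strained cells. Controls and strained cultures of the same litter were nearly equal in pairs 2 and 3, with differences of -0.04 and 0.00. The fitted value was 0.05 ± 0.10, with a 95% interval from -0.16 to 0.26. Ldhb, the subunit of oxidative tissues, was at -0.04 ± 0.15. Gapdh was measured on 3 control probe sets. The brightest gave 15676, 13735 and 13321 in controls and 17787, 14846 and 13476 in strained cells, higher by 0.18, 0.11 and 0.02 in pairs 1 to 3. With these probe sets kept in the fit, Gapdh was at 0.10 ± 0.06 (adjusted p = 0.690 in limma).

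**Figure D2:**
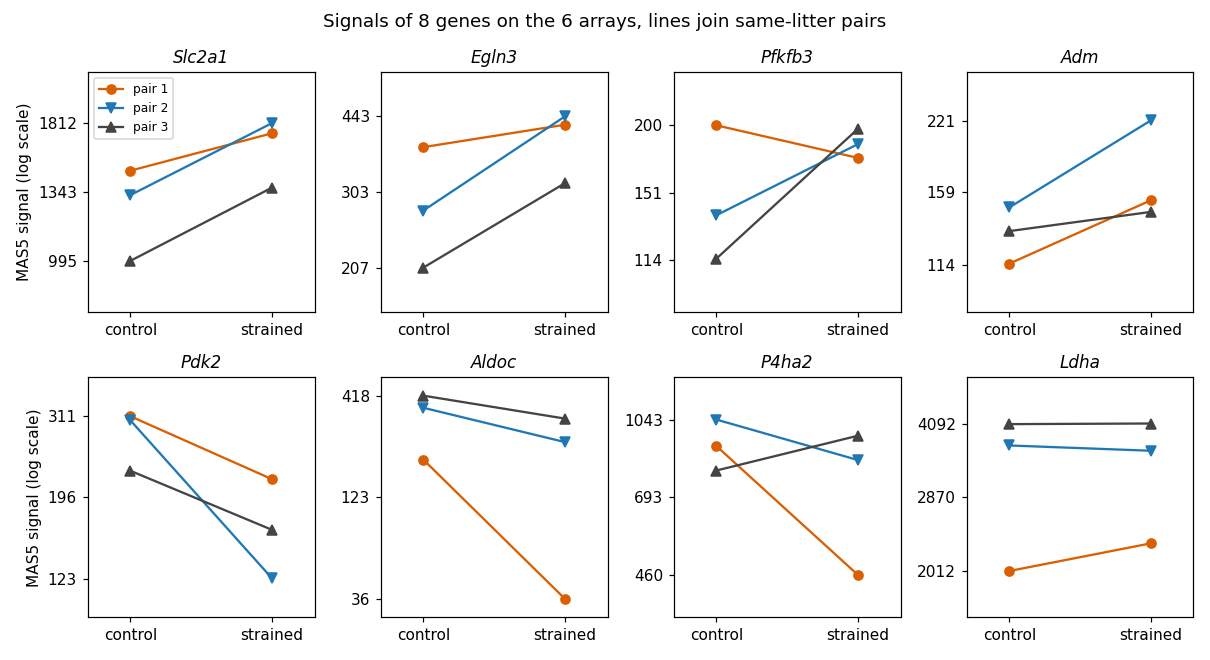
MAS5 signals (y axis, log scale, a separate range in each panel) of 8 members in control and strained cultures, with lines joining the 2 cultures of a litter. In strained cells Slc2a1, Egln3 and Adm are higher and Pdk2 and Aldoc lower in each pair, Pfkfb3 and P4ha2 are mixed, and Ldha differs more between pair 1 and the others than within any pair.

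Of the 5 enzymes that switch glycolysis and pyruvate use, 2 lay above 0 and 3 below it, from -0.71 to 0.31. Pdk2 encodes a pyruvate dehydrogenase kinase, which inactivates the complex that brings pyruvate into the mitochondria. Its signals were 311, 304 and 228 in controls and 217, 123 and 163 in strained cells. Every strained culture was below every control, and Pdk2 was the only member whose groups did not overlap on its brightest probe set. The second probe set of Pfkm, far below the filter, did not overlap either, with strained cells lower. Of all tested genes 6.18% had groups that did not overlap, 2.99% with strained cells higher and 3.2% with them lower. The exact permutation test of 3 against 3, which ignores the pairs, cannot give less than 0.10. An exact test that flips the signs of the 3 pair differences cannot give less than 0.25. The log2 difference was -0.71 ± 0.20 (95% interval -1.16 to -0.26, adjusted p = 0.270 in limma), and without pair 2, which gave -1.20, it was -0.47 ± 0.27. A second, dim probe set of Pdk2 below the filter gave a mean difference of -0.09, with -0.58, -0.08 and 0.40 in the pairs.

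Of the related kinases, Pdk1, the form induced by HIF-1, was at -0.13 ± 0.22, with pair differences of 0.25, -0.37 and -0.27. A second probe set of Pdk1, below the filter, was lower in every pair, with -0.28, -0.36 and -0.56. Pdk4, the form induced by fasting and glucocorticoids, was at 0.15 ± 0.23 and differed in sign between pairs. Pdha1, the catalytic subunit of pyruvate dehydrogenase on which these kinases act, was at -0.12 ± 0.12 and slightly lower in each pair. Its second probe set was at -0.13 ± 0.15.

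Pfkfb3 makes fructose 2,6-bisphosphate, the activator of phosphofructokinase. Its signals were 200, 137 and 115 in controls and 175, 185 and 197 in strained cells. Control 1 was the highest of all 6 arrays, so that pair 1 was lower by 0.18 while pairs 2 and 3 were higher by 0.39 and 0.71. The fitted value was 0.31 ± 0.22 (adjusted p = 0.745 in limma), and it ran from 0.10 without pair 3 to 0.55 without pair 1. The other probe set of Pfkfb3 was higher in all 3 pairs, at 0.37 ± 0.22.

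Among HIF subunits and oxygen sensors, neither alpha subunit mRNA was called. Hif1a was at 0.05 ± 0.16, with 0.23, 0.31 and -0.38 in pairs 1 to 3. Epas1, which encodes HIF-2 alpha and is high in lung, was at -0.20 ± 0.14 and its second tested probe set at -0.03 ± 0.22. The array measures mRNA, so HIF protein was not assessed.

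The prolyl hydroxylases differed from each other in size. Egln1, the main oxygen sensor PHD2, was at 0.06 ± 0.12. Egln3 encodes PHD3, itself a HIF target that feeds back on HIF. Its signals were 379, 276 and 207 in controls and 425, 443 and 317 in strained cells. It was higher in all 3 pairs, by 0.16, 0.65 and 0.58, and control 1 overlapped the strained range. The difference of 0.46 ± 0.16 was the highest of all members (95% interval 0.10 to 0.82, adjusted p = 0.387 in limma).

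The 8 tested hypoxia targets outside glycolysis had a median of 0.09, with 6 values above 0 and 4 genes higher in all 3 pairs, where 14.3% of all tested genes were. Adm, the vasodilator peptide adrenomedullin, gave 115, 148 and 133 in controls and 153, 221 and 145 in strained cells. It was higher in each pair, with overlap because control 2 exceeded strained culture 3, and the difference was 0.34 ± 0.21 (adjusted p = 0.690 in limma). Vegfa, the vascular growth factor that lung epithelium supplies to the capillaries, gave 1901, 1719 and 1569 in controls and 2252, 1892 and 1964 in strained cells. It too was higher in each pair, with only strained culture 2 below control 1, and the difference was 0.23 ± 0.11 (95% interval 0.00 to 0.47, adjusted p = 0.521 in limma). Its second probe set was at 0.15 ± 0.15.

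Targets with roles in cell stress and mitophagy were smaller in size. Bnip3 and Bnip3l, receptors for the removal of mitochondria, were at 0.20 ± 0.17 and 0.08 ± 0.10, with strained culture 2 below its control for Bnip3 (-0.17). Ndrg1, a widely used hypoxia marker, was at 0.10 ± 0.13. Ddit4 encodes REDD1, an inhibitor of mTORC1 that is induced by hypoxia and by ATF4. It gave 2113, 1758 and 1402 in controls and 2436, 1447 and 1701 in strained cells, with no common direction, and was at 0.07 ± 0.13. For comparison, a list of 20 tested ATF4 and amino acid response genes had a median of 0.81 in the same fit, with 12 called higher and none lower.

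The collagen prolyl hydroxylases lay below 0. P4ha1 was at -0.19 ± 0.14 and lower in each pair. P4ha2 gave 908, 1043 and 798 in controls and 461, 843 and 958 in strained cells. Strained culture 1 stood well below all the others, and strained culture 3 was above its control. The difference of P4ha2 was -0.33 ± 0.19 (adjusted p = 0.664 in limma) but -0.02 without pair 1. Ankrd37, a small ankyrin protein gene induced by HIF-1, was too dim to test and gave 137, 118 and 97.1 in controls and 38.9, 104 and 169 in strained cells. Its pair differences of -1.48, -0.17 and 0.71 had no common direction.

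**Figure D3:**
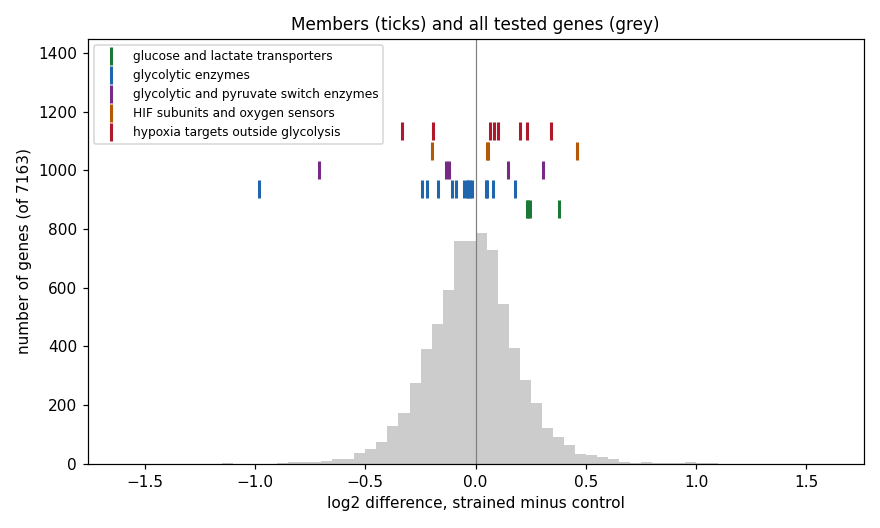
Histogram of the log2 difference of strained minus control cells (x axis) over the 7163 tested genes (grey, y axis in genes), with ticks above it for the members of each role. The 15 enzymes cluster near 0 except Aldoc at -0.98, and the 4 transporters lie between 0.23 and 0.38.

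The levels of the litter pairs were set beside the strain differences. The range of the 3 pair means exceeded the size of the strain difference for all 15 enzymes and for 32 of 36 members. That share of 88.9% stands beside 88.6% of all tested genes. The measures are unlike, since a range over 3 values is set against a mean of 3 differences, which favours the range. Ldha had a mean level of 2151 in pair 1 against 3635 and 4086 in pairs 2 and 3, and Pgk1 of 1647 against 3013 and 2833. For Pgk1 this rests on its brightest probe set, with a log2 range of 0.87 between pair means. The other tested probe set of Pgk1 had a range of only 0.16. Tpi1 and Pfkl were also lowest in pair 1, at 1399 and 966. In all, 11 of 15 enzymes had their lowest pair mean in pair 1 (73.3%), as did 36% of all tested genes. Aldoa ran the other way, with 15420 in pair 1 against 12861 and 11395, as did Gapdh. Litter and run day cannot be told apart here, since pair 1 alone was run on its day. The Gapdh 3' over 5' ratio was also lowest in pair 1, and its part in these levels was not tested.

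**Figure D4:**
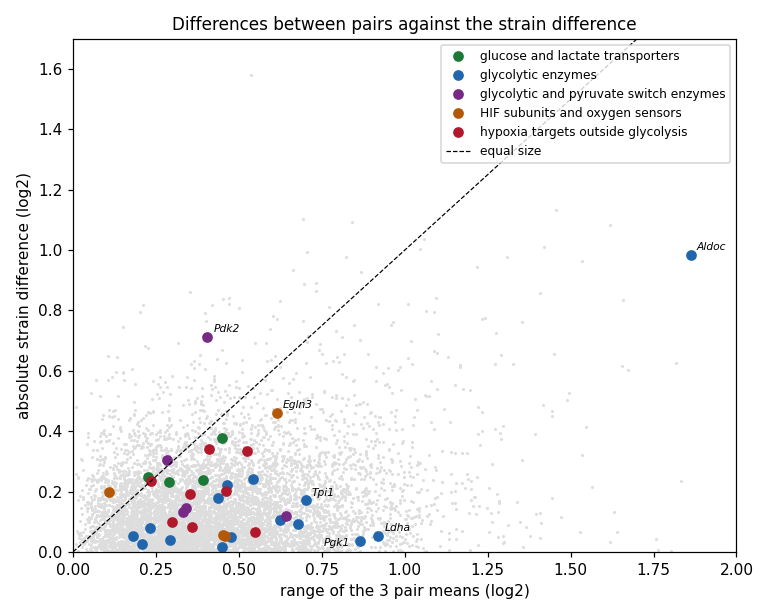
Range of the 3 pair means (x axis, log2) against the size of the strain difference (y axis, log2) for the 36 members (coloured by role) and all tested genes (grey). The x axis ends at 2, beyond which lie 3 genes and no member. Only 4 members lie above the dashed line of equal size, Pdk2 the furthest, while Ldha and Pgk1 lie far to the right and near the bottom. Each member is shown by its brightest probe set, and the other tested probe set of Pgk1 had a range of only 0.16.

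The wider pathway was examined through lists chosen outside the members. Of 26 tested genes of glycolysis, glycogen and pyruvate use, 1 was called higher and none lower. It was Pck2, the mitochondrial phosphoenolpyruvate carboxykinase, at 0.75 ± 0.12 (adjusted p = 0.022 in limma), and the median of the list was -0.04. Its signals were 1109, 808 and 624 in controls and 1888, 1428 and 1018 in strained cells. After Pck2 and Bsg, the smallest p-values belonged to Pygb, a glycogen phosphorylase, at -0.30 ± 0.13, and Gys1, a glycogen synthase, at 0.25 ± 0.14. None of 6 pentose phosphate genes was called in limma, and 1 had an unadjusted p under 0.05. Pgd, an NADPH-making dehydrogenase, was at 0.19 ± 0.08 and Tkt, a transketolase, at 0.12 ± 0.08, each higher in all 3 pairs.

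Of 32 tested further HIF pathway and hypoxia target genes, 1 was called higher and none lower, and 16 lay above 0. The called gene was Hmox1, heme oxygenase 1, at 0.89 ± 0.13 (adjusted p = 0.017 in limma), a gene that oxidative stress also induces. Its signals were 871, 716 and 583 in controls and 1728, 1503 and 920 in strained cells. Without the pair term no probe set of the array was called, Pck2 and Hmox1 included. Next by p stood Vldlr, a lipoprotein receptor, at 0.86 ± 0.20, which is also on the ATF4 list, the transferrin receptor gene Tfrc at 0.53 ± 0.17 and the collagen crosslinking enzyme gene Lox at -0.39 ± 0.16. The median of this list was -0.03, and 0.0066 under median scaling.

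Markers of other cells were compared beside these values. Over 12 measured fibroblast and smooth muscle markers the summed signal ran from 24446 to 29867 in controls and from 19783 to 27376 in strained cells, with a median log2 difference of -0.35 over the 7 above the filter. Of these 7, 4 were lower in all 3 pairs, where 16.2% of all tested genes were, and 1, the collagen gene Col1a1, was higher in all 3. Over 11 leukocyte markers the sums were 2951 to 3632 and 2193 to 3817, the median log2 difference was -0.28 over the 8 above the filter, and Ptprc lay below it. No marker of either list was called in limma. The fibroblast and smooth muscle marker Acta2 came closest, at -0.66 ± 0.12 (adjusted p = 0.0506 in limma), and was lower in each pair. In bulk RNA, fewer cells of a type and less RNA per cell cannot be told apart, and the part of these cells in the differences above was not tested.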

How the data were processed

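RNA from 6 cultures, 3 control and 3 strained, was hybridised to Affymetrix rat arrays, 1 per culture. The deposited values are intensity values on a linear scale, and the submitters' processing notes name MAS5, version 5.0, as the tool. Each array was set to a 2% trimmed mean of 500 here, and log2(signal + 16) was analysed, a scale on which dim genes' differences appear too small. Removing 57 control probe sets and the dimmest 40% of the other 15866 kept 9519. The model was fitted in limma 3.58.1 (R 4.3.3) with pair and group as terms, a variance trend, and p-values were adjusted by Benjamini-Hochberg across the 9519. The model was also run on data simulated from its own fit, which cannot check its assumptions. Variances rest on 2 residual and 9 borrowed degrees of freedom.

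The pairing comes from the series' design text, which gives each pair its own litter. Deviations of same-numbered arrays from their group means correlated at 0.51, 0.47 and 0.44 across probe sets. Symbols came from the platform annotation of 12783 probe sets with a single symbol. Promoter sequences are from RefSeq (GRCr8), and 36 of 40 members matched. Precision is limited by the number of arrays.

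The members and the other lists were chosen with earlier results of these data known. Members that differed one way in every pair by 1.25-fold on average, or a fitted size of at least 0.30, were to be given with all 6 signals; those of Aldoa, Ldha, Pgk1, Vegfa, Ddit4, Gapdh, Ankrd37 and Bsg were added after their values were seen. Of the other lists, up to 4 genes with the smallest p were to be named. Alternatives were the pair block, run day as block, pseudocounts of 1 and 64, the filter, the scaling, the variance model, the mean over probe sets and leaving out each pair.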

Additional observations from a re-analysis of the deposited data

How the results depend on the processing

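Under the 15 other settings no member was called, and the lowest adjusted p of any member in limma was 0.151. Of 522 member values, 504 kept their sign and 18 changed it, none of them called. Keeping the control probe sets was chosen after seeing the data. The count of called probe sets over the whole array was 31. It was 0 with no replicate block, 1 with run day as the block, 5 with no filter and 1 with no variance trend, and it ran from 18 to 52 when a pair was left out. The median of the enzymes stayed between -0.09 and -0.01 and that of the hypoxia targets between 0.08 and 0.17 in every setting. When a pair was left out, the median of the switch enzymes ran from -0.132 to -0.0117 (lowest in size without pair 2) and that of the other glycolysis genes from -0.0601 to 0.0324 (above 0 without pair 2). That of the pentose phosphate genes was -0.0373 with no filter, 0.0874 with 60% dropped and -0.0413 with the mean over probe sets. That of the further HIF pathway genes was 0.0104 with no filter, 0.0281 with 60% dropped, 0.0066 with median scaling, 0.0098 with the mean over probe sets, and from -0.0077 to 0.0322 when a pair was left out. No member was called with the pair term or without it. Since no probe set at all was called without it, this cannot show how the members depend on the pairing. Fewer members could be tested with 60% of probe sets dropped or with the mean over probe sets (27 each). The causes of these shifts were not tested.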
